A study of Mus musculus with 15 samples.

Results

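RNA was measured in mouse embryonic stem cells in which Rpl14 had been knocked down with a small interfering RNA (siRpl14), and in the same cells given a non-targeting siRNA (siNT). The cells were E14, an established embryonic stem cell line, kept on gelatin in medium with serum and leukemia inhibitory factor (LIF), and the labels name no other agent or altered allele in either group. The comparison took 6 of the 15 libraries of the series by their labels, 3 from siRpl14 cells and 3 from siNT cells. The other 9 libraries came from E14 cells given an siRNA against Rpl11, Rpl18 or Rpl23, and they are compared with siRpl14 below. The titles say 48 h and the treatment protocol says 3 days for the harvest, and the labels do not settle which applies. They do not say how many siRNAs were used against a gene, so effects of an siRNA on other transcripts cannot be told apart from effects of the lower Rpl14 level.

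Libraries 1 and 2 of every group shared 1 table, and the third library of each group came in a table that was normalized on its own. Values are FPKM, mapped fragments scaled to transcript length and to the library total. Of 24819 genes in the tables, 12214 reached 1 FPKM in at least 2 of the 6 libraries and were tested. Of these, 375 were under 1 FPKM in all 3 siNT libraries and 295 in all 3 siRpl14 libraries, so they passed only through the group in which they were high. Differences are siRpl14 minus siNT on the log2(FPKM + 1) scale, where changes of low genes come out too small. They are given as estimate ± SE from limma on libraries 1 and 2 (n = 2 per group), with p adjusted over all 12214 genes, and a gene under 0.05 is called higher or lower. The third pair entered no test, and its values are printed for some genes only. Among the called genes named below, it had the opposite sign for Gm15441, Rpl12, Mdm4, Socs3, Gas5 and Esx1 and values of 0 for 2 small nucleolar RNAs. Whether replicates came from separate cultures is not in the labels. The p-values therefore reflect library-to-library spread alone, and this may be technical.

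The product of Rpl14 belongs to the 60S, or large, subunit of the ribosome. In cells that lack enough of such a protein, subunit assembly stalls and a particle of Rpl5, Rpl11 and 5S ribosomal RNA can bind Mdm2, the ubiquitin ligase that keeps the tumour suppressor p53 low. Embryonic stem cells hold much p53 protein, divide fast with a short G1 phase, and rest on a network of transcription factors around Oct4 (Pou5f1), Sox2 and Nanog. A small share of cells in such cultures passes through a state that expresses genes of the 2-cell embryo, among them the Zscan4 family.

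Absolute depth is unknown, because FPKM carries no total. Relative to the first siNT library, depth was 0.698 in the second siNT library and 0.892 and 0.838 in siRpl14 libraries 1 and 2, and the third siRpl14 library had 1.14 times the depth of the third siNT library. The labelled cell type was checked on 7 embryonic stem cell markers, which summed to 6388 to 7166 FPKM in siNT and 4706 to 5834 in siRpl14 libraries. Most of this was Dppa5a, at 3453 to 4350 FPKM in siNT and 2680 to 3375 in siRpl14, with little difference in the third pair. Of these markers Sox2 was called higher, Utf1 was not called and the others were called lower. Of 14 fibroblast and feeder markers, 12 were under 1 FPKM in all 6 libraries and 4 were at 0 in all of them. Their sums were 17.6 to 20.6 FPKM in siNT and 9.86 to 11.7 in siRpl14, and most of this was Thy1 (14.6 to 18.9 FPKM in siNT and 7.51 to 10.2 in siRpl14). The part of these cells in other differences was not tested. In bulk RNA of this kind, a change in the share of cells of one state cannot be told apart from a change per cell.

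The targeted gene was examined first. Rpl14 stood at 1176 and 1215 FPKM in siNT libraries 1 and 2 and at 605 and 629 in the siRpl14 libraries, so 51.6% remained (-0.95 ± 0.05, adjusted p = 2.15e-07). In the third pair it went from 1811 to 698 FPKM, with 38.5% remaining. Within each table, every siRpl14 library lay below every siNT library. Rpl14-ps1, annotated as a processed pseudogene of Rpl14, shares 649 of its 653 bases (99.4%) with the Rpl14 transcript, so reads of the pair may be shared. It went from 29.8 and 31 to 15.4 and 20.03 FPKM in the first table and from 28.6 to 8.31 in the third pair.

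The targets of the other siRNAs did not pass the test in siRpl14 cells. Rpl11 was at 702 and 772 FPKM in siNT and 691 and 766.1 in siRpl14 (-0.02 ± 0.08, adjusted p = 0.871), though quantile normalization gave a call in the opposite direction (0.18). Rpl18 differed by -0.03 ± 0.08. Rpl23 was at 1126 and 1211 FPKM in siNT and at 1265 and 1369 in siRpl14 (0.17 ± 0.07, adjusted p = 0.0605), which passed with quantile normalization (0.29), with all 15 libraries (0.20) and with the robust variance model. Trp53, the gene of p53 itself, rose from 189 and 182 to 306 and 302 FPKM (0.71 ± 0.04, adjusted p = 4.25e-07), and from 223 to 369 in the third pair.

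**Figure D1:**
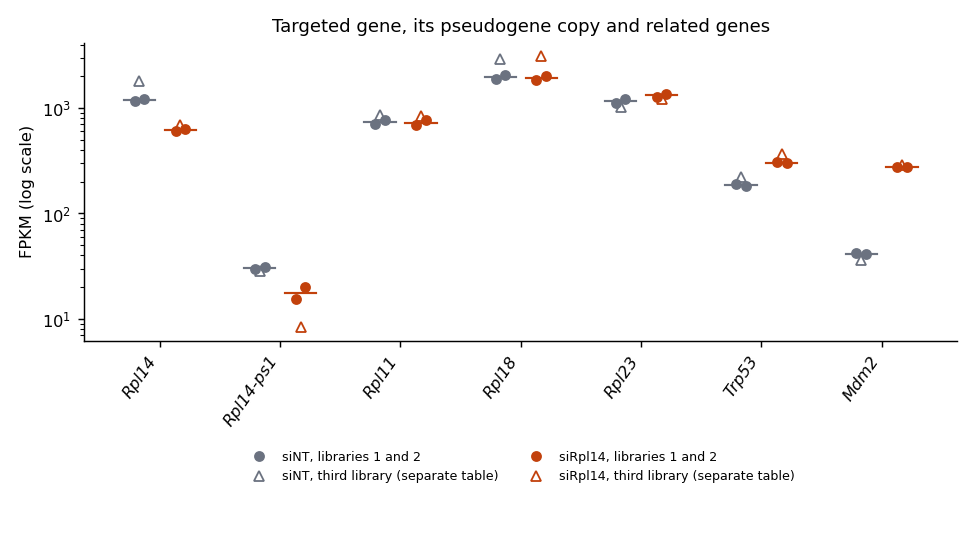
FPKM on a log axis for the targeted gene, its pseudogene copy, the targets of the 3 other siRNAs, Trp53 and Mdm2 in siNT (grey) and siRpl14 (orange) cells. Filled points are libraries 1 and 2, bars are their means, and open triangles are the third libraries from the separate table. Rpl14 lies lower and Trp53 and Mdm2 lie higher in all 3 siRpl14 libraries.

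Across the transcriptome, 4009 genes were called higher (32.8% of those tested) and 3641 lower (29.8%), 62.6% in all. All counts of gene list members below are to be read against these shares. Most of these differences were small: 66.2% of the higher and 72.6% of the lower calls were under 1.5-fold. At 2-fold or more, 553 genes were higher (4.53%) and 195 lower (1.6%). At 4-fold or more there were 90 higher genes and 3 lower ones. Those 3, named after their values were seen, were Nupr1 and the small nucleolar RNAs Snora65 and Snord22. Of the 20 small nucleolar RNAs tested, 17 were listed at 0 in both of the third libraries, these 2 included, so neither fall could be looked up there. The median difference of all genes was 0.01. In 80.4% of genes the siRpl14 and siNT libraries of the first table did not overlap, so an absence of overlap alone sets no gene apart here.

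The third pair came from other libraries and was not used to call genes. Of the 4009 genes called higher, 3737 (93.2%) were also higher there, and of the 3641 called lower, 3219 (88.4%) were lower. Among the 4564 genes not called, 61.7% had the same sign in both tables. For calls of 2-fold or more the shares were 99.5% of the higher and 95.4% of the lower genes. Higher genes of this size had a median of 1.34 in the first table and 1.61 in the third pair, and lower genes had -1.15 and -0.97. Gm15441, a transcript on the strand opposite Txnip, showed the largest disagreement between the tables among called genes other than small nucleolar RNAs. It went from 1.73 and 1.52 to 0.794 and 0.461 FPKM in the first table, but from 3.77 to 24.1 in the third pair, and a fit of all 15 libraries turned its direction (0.33).

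**Figure D2:**
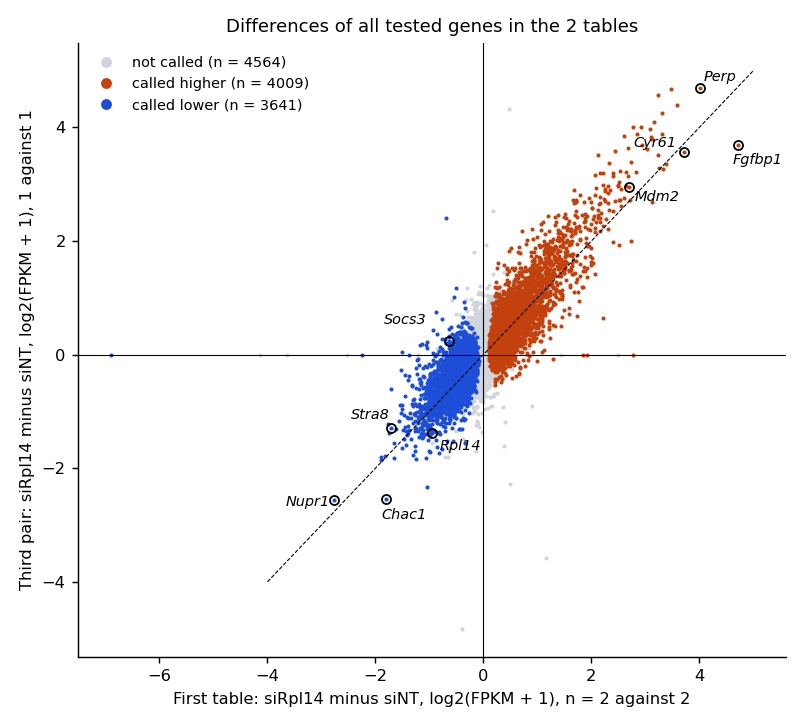
Difference between siRpl14 and siNT for each of the 12214 tested genes on the log2(FPKM + 1) scale, in the first table (horizontal, 2 against 2 libraries) and in the third pair (vertical, 1 against 1). Orange and blue points are genes called higher and lower, grey points were not called, and the dashed line marks equal differences; most called genes lie in the 2 quadrants of matching sign, and genes on the horizontal line at 0 are mainly small nucleolar RNAs listed at 0 in both of the third libraries.

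The largest rises were in genes of low level in siNT cells. Fgfbp1, which carries fibroblast growth factors out of the matrix, rose from 2.07 and 3.90 to 98.4 and 103 FPKM (4.71 ± 0.16, adjusted p = 1.66e-08). In the third pair it went from 6.78 to 100 FPKM. Perp, a membrane protein of desmosomes and a p53 target, rose from 9.03 and 9.53 to 163 and 169 FPKM (4.02 ± 0.06, adjusted p = 2.56e-10) and went from 6.63 to 196 in the third pair. Cpz, a secreted carboxypeptidase, rose from 0.381 and 0.304 to 15.2 and 15.1 FPKM (3.59 ± 0.08). Sct, the precursor of the hormone secretin, rose from 1.60 and 2.29 to 29.6 and 33.5 FPKM (3.47 ± 0.12). Cdkn2b, an inhibitor of the kinases that partner cyclin D, rose from 0.600 and 0.898 to 16.7 and 17.8 FPKM (3.39 ± 0.09). Others of the 12 largest rises were the cartilage protein Matn1 (3.31 ± 0.14), the neurogenic transcription factor Neurod1 (3.31 ± 0.08), the homeobox gene Nkx2-9 (3.26 ± 0.13), the leukotriene receptor Ltb4r2 (3.23 ± 0.07) and the phospholipase Plcd4 (3.22 ± 0.09). The ranking took only called genes without overlap in the first table and with the same sign in the third pair. Their separation within each table was therefore set by that choice. Cpz, Ltb4r2 and Plcd4 were under 1 FPKM in every siNT library. These passed the filter only through siRpl14, so a rise was the only outcome they could show.

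Ranked in the same way, the largest falls were smaller and concerned genes with clear expression in siNT cells. This ranking left out the small nucleolar RNAs Snora65 and Snord22, whose falls could not be looked up in the third pair. Nupr1, a small chromatin protein of stressed cells, fell from 56.6 and 57.6 to 6.66 and 8.47 FPKM (-2.77 ± 0.13, adjusted p = 1.28e-07), and went from 41.9 to 6.27 in the third pair. Inhbb, a subunit of activin and inhibin, fell from 39.4 and 38.2 to 10.2 and 9.28 FPKM (-1.89 ± 0.07). Gabbr1, a subunit of the receptor for the transmitter GABA, fell from 23.1 and 21.98 to 6.60 and 5.50 FPKM (-1.74 ± 0.13). Stra8, a gatekeeper of meiosis, fell from 21.7 and 21.1 to 5.30 and 6.45 FPKM (-1.71 ± 0.09), while the third pair started much lower, at 3.57 against 0.871. In FPKM, the largest losses were those of the abundant genes Dppa5a, Rpl4, Eno1, Ldha, Rpl12 and Rpl14, and Rps12 and Rps15 were among the largest gains. In the third pair, Rpl12 went from 3273 to 3364 FPKM, the opposite direction, Dppa5a from 3453 to 3375 and Rpl4 from 2491 to 2356.

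Targets of p53 were described in 4 lists. All 18 apoptosis targets that passed the filter, of 19 on the list, were called higher, against 32.8% of all genes. Their median difference was 1.03 in the first table and 1.42 in the third pair. Fas was under 1 FPKM in all 3 siNT libraries and passed only through siRpl14, so a rise was the only outcome it could show. Among 12 cell cycle arrest targets 9 were higher and 2 lower (median 0.86), among 10 regulators of p53 itself 8 were higher and 1 lower (0.80), and among 21 metabolism and repair targets 13 were higher and 6 lower (0.67). Over all genes, 29.8% were called lower.

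Among the apoptosis genes, Fas, a death receptor, rose from 0.194 and 0.166 to 10.2 and 11.5 FPKM (3.32 ± 0.12, adjusted p = 2.39e-08), and went from 0.172 to 10.3 in the third pair. Trp73, a relative of p53, rose from 1.87 and 1.51 to 12.1 and 11.7 FPKM (2.26 ± 0.09), and Phlda3, an inhibitor of Akt, from 32.98 and 31.1 to 139 and 136 (2.07 ± 0.04). Apaf1, the core of the apoptosome, rose from 9.08 and 8.20 to 26 and 25.6 FPKM (1.48 ± 0.06). Bax, Bbc3 and Pmaip1, which also belong to the Bcl2 family, moved less in the first table. Pmaip1 rose by 0.86 ± 0.06 there and by 1.30 in the third pair. Bax rose by 0.40 ± 0.05, from 207 and 226 to 292 and 279 FPKM. Bbc3, which encodes Puma, rose by 0.38 ± 0.05 in the first table, whereas the third pair went from 15.4 to 47.9 FPKM, a difference of 1.58. On the other side of the Bcl2 family, Bcl2l1, which encodes the survival protein Bcl-xL, rose from 20.9 and 22.7 to 53.7 and 54.9 FPKM (1.28 ± 0.06). The BH3-only genes Hrk (-1.01 ± 0.10) and Bmf (-1.002 ± 0.06) fell. Of the 14 tested members of this family 8 were higher and 5 lower, against 32.8% and 29.8% of all genes.

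Among the arrest genes, Plk2, a kinase induced by stress, rose from 11.8 and 11.4 to 105 and 107 FPKM (3.09 ± 0.04, adjusted p = 2.56e-10). Ptprv, a phosphatase known as a p53 target in mouse, rose from 2.33 and 2.11 to 21.4 and 20.5 FPKM (2.77 ± 0.08), and Btg2 from 16.9 and 18.03 to 81.2 and 82.1 (2.16 ± 0.05). Cdkn1a, which encodes the kinase inhibitor p21, rose less, from 52.5 and 48.3 to 116 and 113 FPKM (1.17 ± 0.06, adjusted p = 2.32e-07), and from 42.7 to 133 in the third pair. Ccng2, an atypical cyclin, fell from 23.2 and 24.05 to 8.20 and 8.83 FPKM (-1.37 ± 0.11). Cdkn2a, which encodes p16 and Arf, rose from 2.37 and 3.41 to 9.32 and 8.24 FPKM (1.34 ± 0.11).

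Feedback genes rose as well. Mdm2 rose from 41.97 and 41.2 to 277 and 274 FPKM (2.70 ± 0.04, adjusted p = 2.56e-10), 6.62-fold in FPKM and 7.92-fold in the third pair. Its partner Mdm4 was lower in the first table (-0.33 ± 0.07, adjusted p = 0.00355) but higher by 0.31 in the third pair, and the call ended with all 15 libraries (-0.11). Trp53inp1, a stress-induced p53 cofactor, rose by 1.96 ± 0.05 and Ccng1, a cyclin that acts back on Mdm2, by 1.40 ± 0.04. In the metabolism and repair list the rises were in Sco2 (1.83 ± 0.08), needed for cytochrome c oxidase, Dcxr (1.71 ± 0.07), a carbonyl reductase, Ddit4 (1.53 ± 0.05), an inhibitor of the growth kinase mTORC1, and Ercc5 (1.43 ± 0.06), a repair nuclease. Several genes of the same list fell: the glutaminase gene Gls2 (-1.07 ± 0.07), the damage sensors Ddb2 (-0.63 ± 0.14) and Xpc (-0.59 ± 0.06), and Sesn1 (-0.56 ± 0.07). Sesn2, a paralog of Sesn1, rose by 0.57 ± 0.05. Tap1, a peptide transporter for antigen presentation also known as a p53 target, rose from 1.01 and 1.53 to 19.1 and 18.3 FPKM (3.13 ± 0.10). Its partner in antigen presentation, the class I gene H2-K1, fell from 25.8 and 27.2 to 9.91 and 11.3 FPKM (-1.25 ± 0.07). Interferon response genes as a list had 3 of 13 higher and 8 lower, against 32.8% and 29.8% of all genes.

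**Figure D3:**
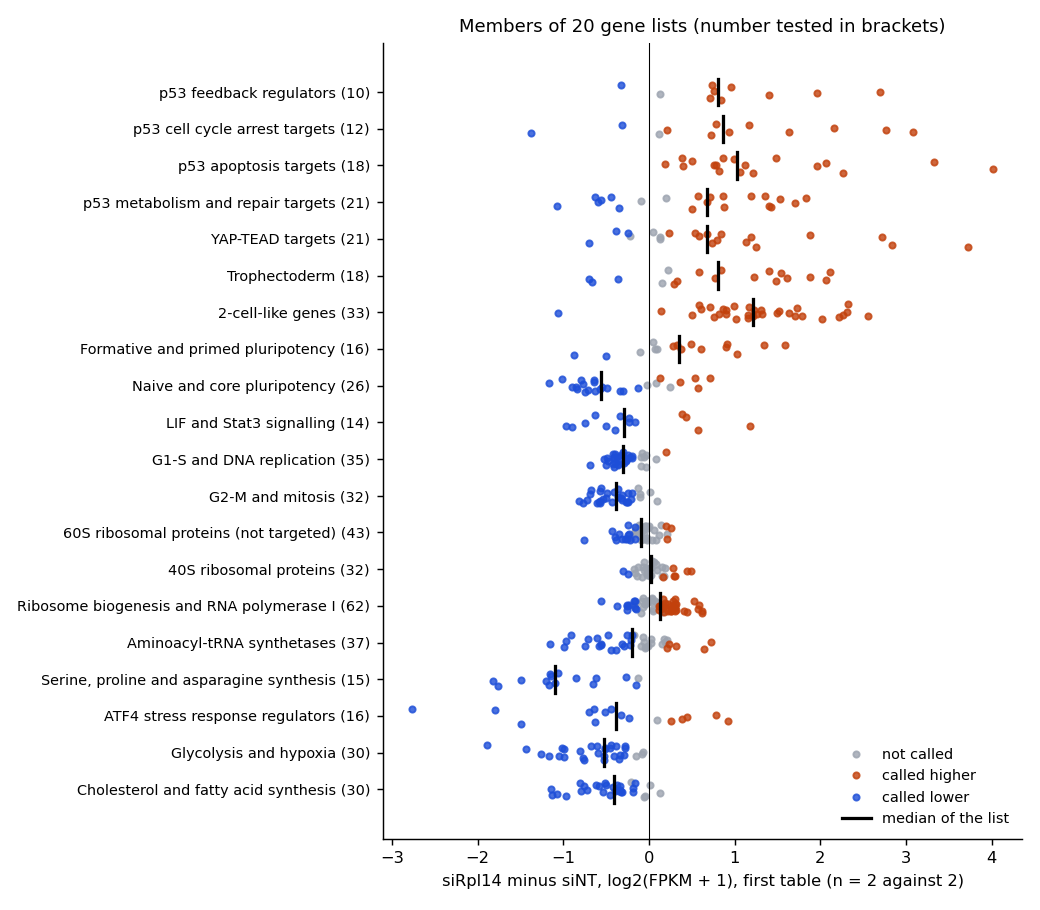
Difference between siRpl14 and siNT (log2(FPKM + 1), first table, n = 2 against 2) for the tested members of 20 gene lists, 1 point per gene. Orange and blue points were called higher and lower, grey points were not called, and the black bar is the list's median. The p53, YAP-TEAD, trophectoderm, 2-cell-like and formative pluripotency lists lie mainly right of 0. The metabolic, cell cycle and naive pluripotency lists lie mainly left.

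Targets of YAP and TEAD, the coactivator and DNA-binding factors at the end of the Hippo pathway, made up a list of 25. Of these, 21 passed the filter, and 14 were called higher and 3 lower, against 32.8% and 29.8% of all genes. Among the 21, 1 was under 1 FPKM in all siNT libraries. Their median was 0.68 in the first table and 0.67 in the third pair. Their promoters were searched for GGAATG, the core that TEAD factors bind, on both strands, from 250 bases before to 50 after the start given by RefSeq on build GRCm38.p6. The letters were present in 8 of 13 listed genes with a promoter in the table (61.5%), in 14.3% of the 9815 tested genes with one and in 14.7% of all 32851 promoters. A match is a description of the sequence and not a measured binding site. For the 2 members with the largest rise among those with a match before the start, Cyr61 (RefSeq symbol Ccn1, chr3:145649986-145650235, minus strand) and Ptpn14 (chr1:189728018-189728267, plus strand), the 250 bases before the start are printed in the direction of transcription, with the match in capitals; both carry it as CATTCC, the reverse complement.
Cyr61: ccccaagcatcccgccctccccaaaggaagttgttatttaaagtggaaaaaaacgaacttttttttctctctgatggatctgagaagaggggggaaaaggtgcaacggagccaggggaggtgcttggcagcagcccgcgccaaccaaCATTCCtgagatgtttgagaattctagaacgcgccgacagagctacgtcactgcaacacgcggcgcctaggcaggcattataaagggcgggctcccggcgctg
Ptpn14: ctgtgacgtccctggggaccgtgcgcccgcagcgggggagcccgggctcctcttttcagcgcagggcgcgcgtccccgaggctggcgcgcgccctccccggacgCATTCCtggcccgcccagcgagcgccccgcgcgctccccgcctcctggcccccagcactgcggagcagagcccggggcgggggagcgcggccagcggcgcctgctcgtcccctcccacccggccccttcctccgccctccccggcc

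Cyr61, a matricellular protein and a standard readout of YAP, rose from 3.84 and 4.35 to 64.4 and 68.3 FPKM (3.72 ± 0.06, adjusted p = 2.56e-10), with 5.62 against 77.0 in the third pair. Ptpn14, a phosphatase that restrains YAP and is also listed among p53 targets, rose from 5.72 and 5.40 to 46.6 and 45.2 FPKM (2.84 ± 0.05). Ctgf, a close relative of Cyr61, rose from 6.03 and 5.41 to 42.5 and 44.2 FPKM (2.73 ± 0.07), and from 11.7 to 49.6 in the third pair. Amotl2 (1.88 ± 0.05) and Lats2 (1.196 ± 0.13), both inhibitors of YAP, rose with them. The receptor kinase Axl rose from 0.700 and 0.619 to 2.72 and 2.56 FPKM (1.13 ± 0.08). Yap1 itself rose by 0.24, Tead1 rose by 0.58 and Tead4 fell by 0.70. Of the members not tested, Ankrd1, Foxf2, Rbms3 and Tgfb2 stayed under the filter.

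Genes of cell shape and adhesion were called in both directions, as were all genes (32.8% and 29.8%). Of 26 tested epithelial keratin and junction genes, 12 were higher and 11 lower. Among the 26, 2 were under 1 FPKM in all siNT libraries, as were 3 of the 19 mesenchymal and matrix genes described next. Krt8, an intermediate filament of simple epithelia, rose from 4.40 and 5.46 to 24.2 and 25.02 FPKM (2.11 ± 0.11, adjusted p = 2.09e-07), its partner Krt18 from 4.99 and 5.15 to 15.2 and 16.6 (1.48 ± 0.09), and Krt7 from 0.369 and 0.333 to 3.87 and 4.09 (1.88 ± 0.08). Among tight junction genes, Cldn6 rose by 1.88 ± 0.07, whereas Cldn3 (-1.32 ± 0.18) and Cgn (-0.71 ± 0.08) fell. Mesenchymal and matrix genes had 10 higher and 7 lower of 19 tested: Tagln, an actin-binding protein of contractile cells, rose from 0.823 and 0.860 to 4.96 and 5.09 FPKM (1.71 ± 0.08), and Vim from 98.2 and 96.2 to 187 and 193 (0.96 ± 0.05), while Lama1 (-0.61 ± 0.06) and Fn1 (-0.32 ± 0.07) fell.

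Signalling genes that changed included ligands and their transcriptional readouts. In the AP-1 and immediate early list 9 of 19 tested were higher and 5 lower, against 32.8% and 29.8% of all genes. Among the 19, 2 were under 1 FPKM in all siNT libraries. Jun rose from 2.71 and 2.48 to 14.2 and 13.5 FPKM (2.05 ± 0.07), Fosl1 from 0.206 and 0.118 to 6.68 and 5.80 (2.64 ± 0.08) and Klf6 by 1.92 ± 0.05, while Ier3 fell by 1.26 on the log2 scale and Maff by 1.08. Of 12 tested Wnt genes 10 were higher, against 32.8% of all genes, but 3 of the 12, Wnt3 among them, were under 1 FPKM in all siNT libraries and passed only through siRpl14. The ligand Wnt3 rose from 0.0501 and 0.0949 to 5.32 and 4.99 FPKM (2.52 ± 0.10), and the Wnt-responsive genes Sp5 (2.00 ± 0.09) and Axin2 (0.50 ± 0.07) rose too. Notum, a secreted Wnt inhibitor, fell (-0.76 ± 0.07). Among 18 Nodal, BMP and TGF-beta genes, 12 were higher and 6 lower, and 1 of the 18 was under 1 FPKM in all siNT libraries. Nodal rose from 35.3 and 37.0 to 74.97 and 75.8 FPKM (1.04 ± 0.05) and Lefty1, its target and inhibitor, from 33.2 and 33.3 to 115 and 113 (1.75 ± 0.04). The list's median was 0.62 in the first table and 0.07 in the third pair, where Lefty1 went from 66.6 to 145 FPKM and Id3 from 73.5 to 90.8. Bmp4 (-0.79 ± 0.07) and the Nodal coreceptor Tdgf1 (-0.77 ± 0.07) fell.

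Genes of the naive and core pluripotency network were lower for the most part. Of 26 tested 18 were lower and 5 higher, against 29.8% and 32.8% of all genes. The medians were -0.56 and -0.42 in the first table and the third pair. Nanog fell from 431 and 446 to 238 and 248 FPKM (-0.85 ± 0.04, adjusted p = 1.64e-07), and from 293 to 175 in the third pair. Fgf4, the growth factor that drives exit from the naive state, fell from 137 and 136 to 57.7 and 62.4 FPKM (-1.17 ± 0.04). Tcl1 (-1.02 ± 0.07), a coactivator of Akt, and Tfcp2l1 (-0.90 ± 0.07), a naive transcription factor, fell likewise, as did Zfp42 (-0.84), Prdm14 (-0.79), Klf4 (-0.75), Tbx3 (-0.72) and Esrrb (-0.64). Pou5f1 was at 919 and 977 FPKM in siNT and 745 and 787 in siRpl14 (-0.31 ± 0.06, adjusted p = 0.00122), a call that ended with quantile normalization (-0.04). Sox2 was slightly higher (0.12 ± 0.04, adjusted p = 0.0185), which did not pass without siNT library 2 or siRpl14 library 1, with all 15 libraries or with the 4 libraries alone. Lin28a (0.71 ± 0.04), an RNA-binding protein, Stat3 (0.57 ± 0.05) and Sall4 (0.54 ± 0.06) rose.

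In the list of LIF receptors and targets 10 of 14 were lower and 4 higher, against 29.8% and 32.8% of all genes. Stat3, Klf4, Tfcp2l1 and Gbx2 stand in both this list and the naive and core list, so the counts overlap. Socs3, the feedback inhibitor of Stat3, fell from 108 and 106 to 69.8 and 67.5 FPKM (-0.63 ± 0.04) but went from 62.2 to 73.7 in the third pair. Bcl3 fell by 0.97 on the log2 scale, and Lif itself rose from 1.51 and 1.46 to 4.72 and 4.54 FPKM (1.18 ± 0.06). Formative and primed genes, which mark the next stage of development, had 10 of 16 higher and 2 lower, against 32.8% and 29.8% of all genes. Otx2, a transcription factor of that stage, rose from 9.03 and 8.34 to 27.4 and 28.6 FPKM (1.58 ± 0.05) and Sall2 by 1.34 ± 0.08, whereas Fgf15 (-0.88 ± 0.07) and Foxd3 (-0.50 ± 0.06) fell. Medians of this list were 0.35 in the first table and 0.12 in the third pair. The de novo methyltransferase Dnmt3b stood at 29.8 and 29.3 FPKM in siNT and 31.3 and 29.96 in siRpl14 and did not pass.

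The list of 2-cell-like genes held 46 symbols. The table had 41 of these, and 33 met the filter. Of the 33, 32 were called higher and 1 lower, against 32.8% and 29.8% of all genes. In 7 of the 33, all siNT libraries were under 1 FPKM. These 7 passed only through siRpl14, so a rise was the only outcome they could show. The median difference was 1.22 in the first table and 1.33 in the third pair. Zscan4d rose from 21.9 and 23.9 to 55.7 and 53.9 FPKM (1.22 ± 0.08, adjusted p = 1.32e-06). In the third pair it went from 4.82 to 18.8 FPKM, so the third siRpl14 library lay below siNT libraries 1 and 2 of the other table while the direction was the same. Usp17lb, a deubiquitinase of a multicopy family, rose from 4.79 and 5.31 to 33.7 and 35.2 FPKM (2.55 ± 0.10), Usp17la by 2.33 ± 0.07 and Tdpoz3 by 2.31 ± 0.11. Zfp750 rose from 1.96 and 1.81 to 12.9 and 12.7 FPKM (2.26 ± 0.06). Dux, the transcription factor that activates this programme, was at 0.337 and 0.393 FPKM in siNT and 1.46 and 1.62 in siRpl14 (0.89 ± 0.09). Pramel6 fell (-1.06 ± 0.16). Members of the Zscan4, Usp17l, Tdpoz and Pramel families and the repeated Dux gene are near-identical copies, so how reads were split among them is uncertain.

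Regulators of that state were also examined. Of 26 tested, 6 were higher and 13 lower, against 32.8% and 29.8% of all genes, and the median was -0.11. Dppa2, an activator of Dux, rose from 63.2 and 57.4 to 98.2 and 102 FPKM (0.72 ± 0.05), while its partner Dppa4 fell by 0.30. Among the members with the largest falls were the histone methyltransferases Ehmt2 (-0.48 ± 0.05) and Setdb1 (-0.45 ± 0.04), the chromatin assembly factor Chaf1b (-0.49 ± 0.04) and Uhrf1 (-0.42 ± 0.04), which recruits the maintenance DNA methyltransferase. Dnmt1, that methyltransferase, was at 71.4 and 64.4 FPKM in siNT and 67.4 and 65.4 in siRpl14 and did not pass (-0.03 ± 0.05). Tet2, which oxidises methylcytosine, fell from 41.8 and 40.3 to 24.5 and 23.05 FPKM (-0.76 ± 0.05).

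Genes of extraembryonic lineages started from low levels. Of 22 trophectoderm genes 18 passed the filter, 5 of them under 1 FPKM in all siNT libraries. Of the 18, 13 were higher and 3 lower, against 32.8% and 29.8% of all genes. In the third pair 10 of the 13 and 2 of the 3 had the same sign. The 3 lower genes were Tead4 (-0.70), Ets2 (-0.67) and Esx1 (-0.36). Krt7, Krt8, Krt18, Tead4 and Id2 also stand in lists described above, so the counts overlap. Gata3, Hand1, Cdx2 and Gata4 were under 1 FPKM in every siNT library and passed the filter only through siRpl14, so a rise was the only outcome they could show. Gata3, a trophoblast transcription factor, rose from 0.0381 and 0.0272 to 3.68 and 3.02 FPKM (2.07 ± 0.09), Hand1 from 0.377 and 0.285 to 3.36 and 2.77 (1.61 ± 0.09) and Cdx2 from 0.0710 and 0.0670 to 1.54 and 2.12 (1.40 ± 0.12). The third libraries gave 0.311 against 2.49, 0.4998 against 4.08 and 0.0487 against 1.98 FPKM. Elf5, a defining trophoblast factor, was at 0 in all 3 siRpl14 libraries, and Eomes did not pass (0.22 ± 0.10). Of 9 tested primitive endoderm genes 5 were higher and 3 lower, against 32.8% and 29.8% of all genes. Lama1 was among the lower (-0.61), and 3 of the 9 were under 1 FPKM in all siNT libraries. Gata4 of that list rose from 0.735 and 0.712 to 2.32 and 1.89 FPKM (0.85 ± 0.10), while Sox17 and Gata6 stayed under 1 FPKM in all 6 libraries. Mesoderm markers T, Mixl1 and Mesp1 stayed under 1 FPKM too. The early neural genes Pax6 and Sox1 did not pass, though Nes (1.67 ± 0.07), an intermediate filament of neural progenitors, rose from 2.19 and 2.15 to 8.86 and 9.40 FPKM.

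**Figure D4:**
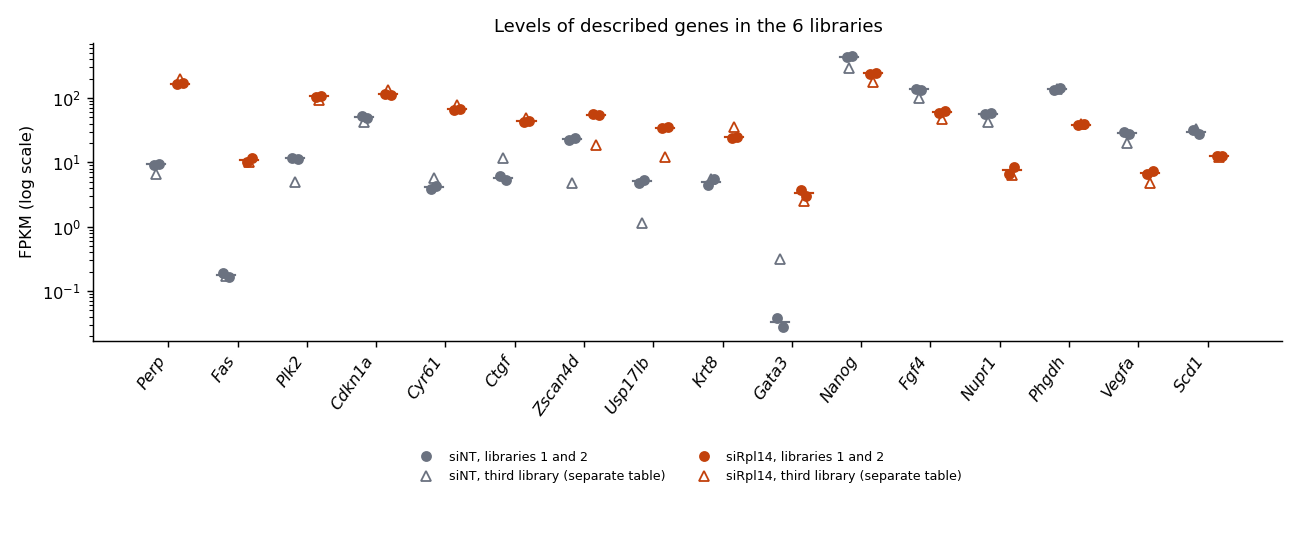
FPKM on a log axis of 16 genes described in the text, in siNT (grey) and siRpl14 (orange) cells. Filled points are libraries 1 and 2, bars are their means, and open triangles are the third libraries from the separate table; Zscan4d and Usp17lb sit lower in both of the third libraries, with the same direction between groups.

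Cell cycle genes were lower by small amounts. Of 35 genes of the G1-S transition and DNA replication, 27 were lower and 1 higher, with a median of -0.30, and of 32 mitotic genes 27 were lower and 5 not called, with a median of -0.39. E2f1, the transcription factor of S-phase entry, fell from 24.6 and 22.9 to 13.4 and 15.3 FPKM (-0.69 ± 0.07). Pcna, the replication clamp, fell from 293 and 307 to 227 and 229 FPKM (-0.39 ± 0.06), and Cdt1, a licensing factor, by 0.53. Plk1, the main mitotic kinase, fell from 107 and 101 to 68.7 and 69.3 FPKM (-0.58 ± 0.04), and Ccnb1 from 202 and 212 to 149 and 161 (-0.41 ± 0.06). The D-type cyclin genes parted: Ccnd3 fell from 198 and 197 to 131 and 133 FPKM (-0.58 ± 0.04) and Ccnd2 rose from 4.05 and 3.75 to 7.82 and 7.41 (0.81 ± 0.07), though it barely differed in the third pair (4.34 against 4.46).

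Promoters of mitotic genes often hold TTTGAA, the cell cycle genes homology region (CHR) bound by repressor complexes of resting cells. In the window from 250 bases before to 50 after the start, on both strands, it was present in 18 of 27 mitotic genes with a promoter (66.7%), in 14.1% of tested genes and in 17.9% of all promoters. Among members with a match before the start, the 2 largest falls were those of Kif2c (chr4:117178773-117179022, minus strand) and Top2a (chr11:99024190-99024439, minus strand). Their 250 bases before the start (RefSeq, GRCm38.p6) are printed with the matches on either strand in capitals, of which Top2a has 2.
Kif2c: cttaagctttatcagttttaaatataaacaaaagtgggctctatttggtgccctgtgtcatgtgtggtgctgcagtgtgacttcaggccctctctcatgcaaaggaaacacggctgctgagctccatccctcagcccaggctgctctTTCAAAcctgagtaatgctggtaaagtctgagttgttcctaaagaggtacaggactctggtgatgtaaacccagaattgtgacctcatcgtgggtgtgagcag
Top2a: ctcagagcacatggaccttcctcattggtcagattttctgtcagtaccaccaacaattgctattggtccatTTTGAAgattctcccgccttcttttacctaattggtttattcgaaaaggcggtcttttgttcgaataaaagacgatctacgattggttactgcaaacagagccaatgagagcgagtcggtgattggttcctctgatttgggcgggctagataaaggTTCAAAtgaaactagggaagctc

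Kif2c, a kinesin that takes microtubules apart, fell from 62.9 and 68.5 to 37.4 and 41.6 FPKM (-0.72 ± 0.07). Top2a, the topoisomerase that untangles chromosomes, fell from 153 and 152 to 92.4 and 98.1 FPKM (-0.67 ± 0.04), and from 164 to 103 in the third pair. Not all carriers of the letters fell: Cdc20, Ube2c, Aurka and Ect2 have them and did not pass.

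Ribosomal protein genes themselves were mostly not called, whereas 32.8% of all genes were called higher and 29.8% lower. The share of lower large-subunit genes was near that of all genes, and the share of higher ones was smaller. Of 43 large-subunit genes other than the 4 targets, 14 were lower, 3 higher and 26 not called, with medians of -0.10 in the first table and 0.06 in the third pair. The lower count fell to 5 without siNT library 2 or siRpl14 library 1, to 9 with no filter or with all 15 libraries, and rose to 23 with the replicate block, and the higher count rose to 10 with quantile normalization. Rpl3 stood out by size: it fell from 1345 and 1414 to 775 and 856 FPKM (-0.76 ± 0.06, adjusted p = 4.65e-06), and from 1380 to 842 in the third pair. Rpl10a fell from 966 and 1015 to 732 and 781 FPKM (-0.39 ± 0.06), and from 1489 to 1138 in the third pair. Rpl4 fell from 3383 and 3652 to 2516 and 2820 FPKM (-0.40 ± 0.08) but the third pair gave 2491 against 2356. Of 32 small-subunit genes 6 were higher and 2 lower, both smaller shares than over all genes. Rps15 rose from 1845 and 1969 to 2522 and 2669 FPKM (0.44 ± 0.08), and was higher by 0.51 in the third pair. Quantile normalization took the higher small-subunit count to 15. Ribosomal protein genes have many processed copies in the genome, so their read assignment is uncertain.

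Paralogs and assembly factors were also read. Rps27l, a p53-induced relative of Rps27, rose from 577.3 and 624 to 949 and 955 FPKM (0.66 ± 0.05), and Rpl39l fell from 129 and 128 to 85.4 and 82.8 (-0.61 ± 0.05). Of 62 ribosome biogenesis and RNA polymerase I genes 33 were higher and 10 lower, against 32.8% and 29.8% of all genes. Their median was 0.13 in the first table but 0.00 in the third pair. The small-subunit processing factors Utp20 (0.62 ± 0.04) and Rrp12 (0.62 ± 0.04) and the polymerase subunit Polr1a (0.57 ± 0.04) rose, and Nop10 (-0.56 ± 0.05) fell. Hosts of small nucleolar RNAs had 8 of 12 lower and 1 higher. Snhg11 fell from 13.6 and 12.3 to 3.83 and 3.28 FPKM (-1.62 ± 0.09) and Snhg8 by 0.98, while Snhg15 rose by 0.52. Gas5 was at 41.96 and 40.4 FPKM in siNT and 29.5 and 29.97 in siRpl14 (-0.46 ± 0.04) but under 1.5 FPKM in both of the third libraries, where it gave the opposite sign.

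Genes that supply amino acids were among the strongest falls. Of 15 serine, proline and asparagine synthesis genes 14 were lower and 1 was not called, with medians of -1.10 in the first table and -1.03 in the third pair. Phgdh, the first enzyme of serine synthesis, fell from 132 and 145 to 37.95 and 38.9 FPKM (-1.82 ± 0.07, adjusted p = 2.39e-08), and from 139 to 39.5 in the third pair. Psat1, the next enzyme, fell from 219 and 228 to 76.9 and 80.7 FPKM (-1.49 ± 0.06). Pycr1 (-1.76 ± 0.09) and Aldh18a1 (-1.21 ± 0.06) of proline synthesis and Asns (-1.10 ± 0.06), asparagine synthetase, fell too. Of 37 aminoacyl-tRNA synthetases 19 were lower and 5 higher, against 29.8% and 32.8% of all genes. The falls were in cytosolic enzymes, such as Sars, from 108 and 110 to 46.98 and 49.9 FPKM (-1.15 ± 0.07), Nars (-0.995 ± 0.06) and Yars (-0.97 ± 0.04), whereas the largest rises were those of mitochondrial Sars2 (0.72 ± 0.09) and Cars2 (0.64 ± 0.05). Amino acid transporters had 8 of 13 lower, led by Slc1a5 (-1.42 ± 0.06), and 2 higher, Slc38a2 (1.00 ± 0.04) and Slc7a7 (1.09 ± 0.04).

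Many of these genes are known targets of ATF4, the transcription factor of the amino acid response. Atf4 itself fell from 191 and 194 to 148 and 158 FPKM (-0.33 ± 0.04) with little difference in the third pair (-0.07). Of 16 tested regulators of this response 10 were lower and 5 higher, with medians of -0.39 and -0.02. Chac1, which degrades glutathione, fell from 13.6 and 12.6 to 3.26 and 2.87 FPKM (-1.80 ± 0.09), and Jdp2 fell by 1.5001 on the log2 scale. Ddit3 (0.44 ± 0.08), Atf3 (0.93 ± 0.13) and Ppp1r15a (0.78 ± 0.05), which act in the same stress response, rose, and Ddit3 went from 14.4 to 40.2 FPKM in the third pair. Promoters were searched for TGATGNAAN, a form of the C/EBP-ATF response element (CARE), in the same window and on both strands. It was present in 6 of 16 regulators (37.5%), 3 of 13 synthesis genes (23.1%), 3 of 9 transporters (33.3%) and 5 of 28 synthetases (17.9%), against 2.55% of tested genes and 3.95% of all promoters. Of the 17 carriers 14 were called lower, among them Nupr1, Chac1, Jdp2, Pycr1, Asns and Aars, against 29.8% of all genes. Atf3 and Slc7a7 rose and Slc7a11 did not pass. Over the whole lists, 10 of 16 regulators, 14 of 15 synthesis genes, 8 of 13 transporters and 19 of 37 synthetases were lower. Whether the letters had a part in the falls was not tested. The 250 bases before the start are shown for the 2 largest falls, Nupr1 (chr7:126625471-126625720, minus strand) and Chac1 (chr2:119350992-119351241, plus strand), with the match, which lies on the opposite strand in both, in capitals (RefSeq, GRCm38.p6).
Nupr1: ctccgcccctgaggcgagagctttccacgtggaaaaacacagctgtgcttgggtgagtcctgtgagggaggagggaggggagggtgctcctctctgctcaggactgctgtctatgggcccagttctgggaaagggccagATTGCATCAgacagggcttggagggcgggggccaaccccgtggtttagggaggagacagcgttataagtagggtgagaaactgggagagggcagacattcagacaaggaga
Chac1: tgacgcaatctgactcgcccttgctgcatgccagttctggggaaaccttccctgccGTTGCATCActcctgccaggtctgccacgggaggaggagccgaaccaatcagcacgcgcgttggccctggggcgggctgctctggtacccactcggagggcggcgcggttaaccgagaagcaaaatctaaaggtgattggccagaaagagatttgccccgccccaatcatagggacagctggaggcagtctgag

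Glycolysis, hypoxia and lipid synthesis genes were mostly lower. Of 30 glycolysis and hypoxia genes 27 were lower and 3 not called, with medians of -0.52 and -0.65 in the first table and the third pair. Vegfa, the angiogenic growth factor, fell from 29.8 and 27.1 to 6.65 and 7.25 FPKM (-1.89 ± 0.10, adjusted p = 2.82e-07), and from 20.01 to 4.78 in the third pair. Pfkp, a phosphofructokinase, fell from 206 and 206 to 71.0 and 80.7 FPKM (-1.43 ± 0.09), and the mitophagy receptor Bnip3 from 170 and 164 to 65.4 and 72.8 (-1.26 ± 0.12). Egln3 (-1.06) and Ndrg1 (-1.02), standard hypoxia-responsive genes, fell as well. The glucose transporter Slc2a1 was at 554 and 509 FPKM in siNT and 499 and 502 in siRpl14 and did not pass (-0.09 ± 0.06), though it did with all 15 libraries (-0.16).

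Of 30 cholesterol and fatty acid synthesis genes 25 were lower and 5 not called, with medians of -0.41 and -0.55. Scd1, which makes monounsaturated fatty acids, fell from 31.3 and 27.2 to 12.5 and 12.7 FPKM (-1.15 ± 0.09), and Insig1, a brake on the sterol sensor, from 47.6 and 50.8 to 20.9 and 22.8 (-1.14 ± 0.06). Srebf2, the transcription factor of this pathway, fell by 0.75. The metal-binding proteins Mt1, from 572 and 541 to 275 and 270 FPKM (-1.03 ± 0.05), and Mt2 (-0.80 ± 0.05) fell, while Hmox1, a heme oxygenase, rose by 0.61 ± 0.05. Of 80 nuclear genes of oxidative phosphorylation 15 were higher, a smaller share than the 32.8% of all genes, and 24 lower, near the 29.8% of all genes, with a median of -0.01. Of 29 lysosomal genes 11 were higher and 13 lower, against 32.8% and 29.8% of all genes. Ctsd, a protease of that organelle, rose from 175 and 179 to 253 and 267 FPKM (0.55 ± 0.05), whereas Gusb fell by 0.87.

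Direct contrasts between knockdowns, which hold no siNT library, compared the siRpl14 libraries with those of the other siRNAs. The depth of knockdown was unequal: mean FPKM of the target against siNT was 617 against 1195 for Rpl14, 177 against 737 for Rpl11, 642 against 1967 for Rpl18 and 424 against 1168 for Rpl23. Depth of knockdown and identity of the target cannot be told apart here. The median SE of a difference (0.07) was the same in each contrast by construction, because the fit shares each gene's spread across groups of equal size. It does not describe the spread within each knockdown. Against siRpl23, 11 genes were higher in siRpl14 (0.0901%) and 50 lower (0.409%), and the median absolute difference over all genes was 0.07. Against siRpl18, 1020 genes were higher (8.35%) and 705 lower (5.77%), with 15 genes 2-fold or more apart. Against siRpl11, 5165 genes were higher (42.3%) and 2020 lower (16.5%), with a median absolute difference of 0.24 and 522 genes 2-fold or more apart. The split by direction in these contrasts rests on scaling. Against siRpl11 the median of all genes was 0.13 and 71.9% of calls were higher, which became -0.04 and 44.8% with quantile normalization and 0.03 and 54.9% with median-ratio scaling. Against siRpl18 the share of higher calls went from 59.1% to 48.4% and 43.3%, and against siRpl23 from 18% to 29.7% and 20.5%. Among the third libraries, 39 genes were 2-fold or more apart from siRpl23, 69 from siRpl18 and 827 from siRpl11.

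In 23 genes siRpl14 passed the test against each of the 3 other knockdowns with 1 sign, 7 higher (0.0573% of genes) and 16 lower (0.131%). Leaving out siRpl14 library 1 or 2 cut these to 1 higher and 2 or 4 lower, leaving out either siNT library left 9 lower, and the replicate block raised them to 38 and 51. Among the third libraries, 7 of 7 and 13 of 16 had the same sign in all 3 differences, where 33.8% of all genes were higher and 13.2% lower than in all 3 other knockdowns. Rpl14 and Rpl14-ps1 were the 2 genes lower by 1.5-fold or more against each, which is the target and its near-identical copy. Tagln and Copz2 were the 2 higher by that much. Tagln was at 4.96 and 5.09 FPKM in siRpl14 libraries, where siRpl11 averaged 0.617, siRpl18 1.96 and siRpl23 2.38, and it exceeded them by 1.90, 1.03 and 0.83. It was the only one of the 7 higher genes that passed in all 14 alternatives run, and among lower genes Rpl14 and Picalm did so. Copz2, a coat protein of Golgi vesicles, was at 2.48 and 2.15 FPKM in siRpl14, below siNT (3.62 and 3.33) and above the others (0.723 to 1.18 on average), and passed in 7 of 14.

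Picalm, a clathrin adaptor, was at 38.7 and 40.1 FPKM in siRpl14, below siNT (47.4 and 48.5), while siRpl11, siRpl18 and siRpl23 averaged 55.7, 55.98 and 53.4. It was lower than each by 0.43 to 0.50, and by 0.34 to 0.43 in the third table. Gadd45g, a stress-induced growth regulator, rose against siNT from 1.32 and 1.47 to 14.8 and 15.0 FPKM (2.73 ± 0.06) but stood below the 22.2 to 24.2 FPKM of the other knockdowns. In the third table its difference from siRpl18 was 0.00. Bcor, a corepressor, rose from 5.75 and 5.75 to 13.7 and 13.3 FPKM and stayed below siRpl11 (30.3), siRpl18 (17.2) and siRpl23 (17.3). Otx2 was also lower than in each other knockdown, by 1.45 against siRpl11, 0.76 against siRpl18 and 0.34 against siRpl23. Nes and Rec8, a meiotic cohesin, were higher than in each, Nes by 1.54, 0.72 and 0.45 and Rec8 by 1.56, 0.56 and 0.43.

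**Figure D5:**
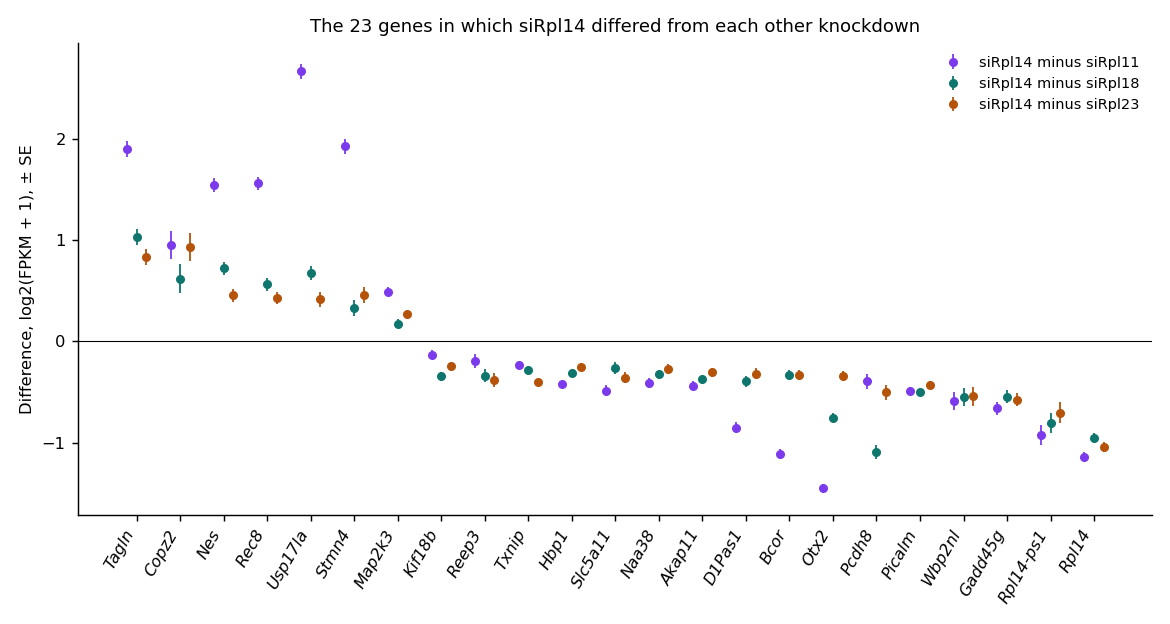
Differences of siRpl14 from siRpl11 (purple), siRpl18 (green) and siRpl23 (brown) on the log2(FPKM + 1) scale, with bars of ± SE, for the 23 genes that passed against each of them. Genes run from the highest to the lowest smallest difference; Tagln and Copz2 lead on the left, Rpl14 and Rpl14-ps1 end the row, and for most genes the difference from siRpl11 is the largest of the 3.

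For most of the genes described above the Rpl14 and Rpl23 knockdowns gave close values. Perp differed from siRpl23 by -0.20 ± 0.06, Cyr61 by -0.10 ± 0.06, Zscan4d by 0.07 ± 0.08, Nanog by -0.06 ± 0.04, Phgdh by 0.06 ± 0.07 and Vegfa by 0.23 ± 0.10, and none of these 6 passed the test, which does not show that the levels were equal. Mdm2 was lower than in siRpl23 by 0.34 on the log2 scale and did pass (adjusted p = 0.0185). Against siRpl11, Trp53 was lower by 0.83 on the log2 scale, while Perp, Fas, Cyr61 and Zscan4d were higher by 1.97, 1.58, 1.91 and 2.14, against a median of 0.13 over all genes in that contrast.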

How the data were processed

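Polyadenylated RNA of E14 cells was sequenced from stranded libraries, per the labels' protocols. The authors deposited FPKM values, which per the submitters' processing notes came from STAR and Cuffnorm with mouse build mm9; no version is stated there. Libraries 1 and 2 of 5 groups share a table of 10 libraries, and the third libraries share a separately normalized table of 5, so levels are compared only within a table. The tables hold 2 more columns that match no sample, and these were not used.

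Values were taken as log2(FPKM + 1) and fitted with limma 3.58.1 in R 4.3.3 on the 10 libraries of the first table (5 residual degrees of freedom), with Benjamini-Hochberg adjustment over 12214 genes. The script was tested on simulated data. Genes were named by rank of change over all genes, by size in FPKM, by rank and order within 52 gene lists, by distance from the other knockdowns and by disagreement with the third pair. Apaf1, Lats2, Axl, Yap1, Tead1, Zfp42, Prdm14, Tbx3, Esrrb, Dnmt3b, Dux, Eomes, Top2a, Cdc20, Ube2c, Aurka, Ect2, Egln3, Ndrg1, Srebf2 and Txnip fall outside that rule and were chosen after their values were seen. Members and lists were chosen with earlier results of these data known. Alternatives covered the added constant, the filter, scaling, the libraries fitted, a replicate term, the variance model and leaving out each siRpl14 or siNT library.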

Additional observations from a re-analysis of the deposited data

How the results depend on the processing

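Of 159 summary values recomputed under alternatives, 116 stayed within 1.5 times of their main value and 43 did not. Counts against siNT (4009 higher, 3641 lower) were among the former: leaving out 1 library gave 3506 to 3661 higher and 3133 to 3268 lower genes. Deviations of same-numbered libraries were weakly correlated, and most correlations were positive (-0.0998 to 0.213). Whether the numbers pair the samples cannot be told from these values. With the replicate block, 4292 genes were higher and 3947 lower than in siNT, 38 and 51 stood apart from all 3 other knockdowns, 1542 were higher than in siRpl18, and 56 were higher and 166 lower than in siRpl23.

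Contrasts between knockdowns moved most. Genes apart from all 3 knockdowns numbered 2 higher and 9 lower with a constant of 0.1, 18 higher with 5, 2 and 7 with no filter, 17 higher with quantile normalization, 13 higher with the robust variance model and 9 lower with all 15 libraries. Leaving out siRpl14 library 1 or 2 left 1 higher in either case and 2 or 4 lower, and leaving out siNT library 1 or 2 left 9 lower. Against siRpl11, quantile normalization gave 2978 higher and 3668 lower genes and median-ratio scaling 3223 lower. Against siRpl18, 303 to 989 were higher and 289 to 701 lower when 1 library was left out, the low values without siRpl14 library 2 and 377 and 316 without library 1. Against siRpl23, the counts were 3 higher and 19 lower with a constant of 0.1, 26 and 79 with 5, 4 and 19 with no filter, 27 higher with quantile normalization, 19 higher with the robust model and 30 lower with all 15 libraries. They ranged over 2 to 7 higher and 3 to 32 lower when 1 library was left out, lowest without siRpl14 library 1 or 2. The cause was not tested.

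Direction turned for Rpl11 (0.18) and Rpl36al (0.00556) with quantile normalization and for Gm15441 (0.33) with all 15 libraries. Among single genes and lists, 149 values lost a call and 9 gained one. FPKM keeps no read total, so small differences in low genes have unknown counting error.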
